A study of Mus musculus with 24 samples.

Results

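The 10 genes Tox, Tcf7, Eomes, Tbx21, Id2, Id3, Prdm1, Bach2, Lef1 and Irf8 encode transcription factors that are known to steer T cell fate. They were chosen by symbol among the 32285 genes of the deposited count matrix, all 10 were found, and 24337 of the genes in the matrix had a UMI in at least 3 barcodes. A T cell that meets antigen can persist as a long-lived memory or stem-like cell, become a short-lived effector cell, or, under antigen that does not clear, take on a dysfunctional state called exhaustion. TCF-1 (encoded by Tcf7), LEF-1, BACH2 and ID3 are known to hold cells in the naive, memory or stem-like state, whereas T-bet (Tbx21), ID2 and BLIMP-1 (Prdm1) drive effector differentiation, and EOMES takes part in memory, in late exhaustion and in NK cell development. TOX is known to establish the exhausted program, and IRF8 is best known from myeloid and B cells and is also induced in activated CD8+ T cells.

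Panc02 cells, a mouse pancreatic cancer line, were grown under the skin of male wild-type C57BL/6 mice aged 6 to 7 weeks. PancVAX, a vaccine of tumor peptides (50 µg of each) with the adjuvants AddaVax and the STING agonist ADU-V16, was given on days 12 and 19 and replaced by PBS in the other mice, so that peptides and adjuvants cannot be told apart. Anti-PD-1 (100 µg, from day 12) and anti-CTLA-4 (100 µg, days 15 and 22) are antibodies that block T cell inhibitory receptors, with isotype antibodies as control. The 8 treatments were Isotype Control, Anti-PD-1, Anti-CTLA-4, Anti-PD-1 + Anti-CTLA-4, PancVAX, and PancVAX with each antibody or with both, and tumors were harvested on day 38. Doses and days are those of the study's methods, and its text elsewhere gives an earlier second day for anti-CTLA-4 and an earlier harvest. Tumors were pooled by treatment, and each treatment had a whole tumor library and a second one of cells from a Percoll gradient, which enriches leukocytes; both together are called its pool. The 2 preparations were also the 2 sequencing batches, so that those cannot be told apart. Because a pool mixes tumors of several mice, tests between treatments measure the spread between pools.

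The 16 libraries held 77132398 to 176233225 UMIs, that is, counted RNA molecules, in 144994 barcodes. Of these, 57357 (39.6%) passed the cell filters, with a median of 2782 to 4193 UMIs per kept cell by library. Among 55243 barcode sequences of kept cells, 2057 occurred in 2 or more libraries. Cells were gated on genes that are not among the 10. CD8 T cells had a UMI of Cd3d, Cd3e or Cd3g and of Cd8a or Cd8b1, none of Cd4, and under 0.5% of UMIs from genes of other lineages. These were 10812 cells, 1144 CD4 T cells had no Foxp3 UMI, 246 had one, and 428 NK cells had at least 2 UMIs of Ncr1, Klrb1c or Klre1 and no Cd3. CD8 cells were further read as PD-1+ (a Pdcd1 UMI, 5612 cells), and, among cells without Mki67 or Top2a, as PD-1+ Havcr2+ (500 cells; Havcr2 encodes the exhaustion receptor TIM-3), PD-1+ Slamf6+ (105 cells; a surface marker of stem-like exhausted cells), and Ly6c2+ Ccl5+ without Pdcd1 or Havcr2 (2489 cells). The 1540 cells outside the PD-1+, cycling and Ly6c2+ Ccl5+ gates were left as 1 rest. Among Percoll cells, a TRB chain contig was found for 79.2% of the CD8 gate, 84.9% and 82.7% of the Foxp3- and Foxp3+ CD4 gates, and 0.448% of the NK gate, so that the T cell gates stood apart from the NK gate in T cell receptor sequence, which had not been used to set them. It does not tell the T cell gates from each other. A gate read from single UMIs misses cells that hold the RNA but gave no UMI, and its members depend on depth.

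RefSeq promoter windows (250 bases before to 50 after a start site, GRCm38.p6) were given for 9 of the 10 genes, 14 windows in all, and none for Tox. A window of Lef1 and one of Bach2 are shown because they hold the sequence CTTTGA, searched on both strands, a core of the TCF/LEF motif that TCF-1 and LEF-1 bind, and because Lef1 and Bach2 were higher together with Tcf7 in Ly6c2+ Ccl5+ than in PD-1+ Havcr2+ CD8 cells, as described further on. This sequence stood in 2 of the 14 windows and in 16.0% of all 32851 windows. The matches lie on the minus strand and are in capitals in the first 2 sequences, which are on the plus strand at chr3:131156044-131156343 (Lef1) and chr4:32417185-32417484 (Bach2). Both belong to start sites inside the genes, which span chr3:131110297-131224357 and chr4:32238413-32586109. The third is one of 2 Irf8 windows, at chr8:120736108-120736407, plus strand, with 1 match of GGAAA (the other window has 2), searched on both strands, in capitals, the core that NFAT binds. That core stood in 11 of the 14 windows, of 7 of the genes, and in 61.3% of all windows, so that a match is common. A match describes letters in a window and is not a binding site.
Lef1: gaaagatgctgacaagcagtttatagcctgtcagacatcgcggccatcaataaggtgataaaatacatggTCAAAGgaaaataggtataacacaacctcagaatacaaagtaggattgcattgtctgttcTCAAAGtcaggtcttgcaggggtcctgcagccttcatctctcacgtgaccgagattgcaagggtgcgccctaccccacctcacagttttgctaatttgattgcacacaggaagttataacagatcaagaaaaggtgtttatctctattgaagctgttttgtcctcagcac
Bach2: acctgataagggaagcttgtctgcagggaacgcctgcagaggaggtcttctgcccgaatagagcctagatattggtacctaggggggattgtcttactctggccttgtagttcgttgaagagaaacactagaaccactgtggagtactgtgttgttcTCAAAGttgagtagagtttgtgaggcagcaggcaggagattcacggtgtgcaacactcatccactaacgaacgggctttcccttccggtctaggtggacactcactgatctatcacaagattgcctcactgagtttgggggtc
Irf8: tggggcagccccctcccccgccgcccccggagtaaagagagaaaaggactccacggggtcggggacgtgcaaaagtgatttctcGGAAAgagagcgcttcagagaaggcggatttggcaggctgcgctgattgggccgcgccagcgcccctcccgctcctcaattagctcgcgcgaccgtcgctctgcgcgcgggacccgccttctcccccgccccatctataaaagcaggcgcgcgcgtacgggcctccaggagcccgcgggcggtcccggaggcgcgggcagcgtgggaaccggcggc

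Levels are given in CPM, the UMIs of a gene scaled to the summed UMIs of the gate in each library, and were compared between gates and not between genes. In the whole CD8 gate, Tox ranged from 71.3 to 222 CPM over the 16 libraries (median 151), Irf8 from 99.6 to 334 (median 190) and Id2 from 448 to 768 (median 583). Tcf7 and Lef1 had medians of 47.6 and 43.9 CPM, Tbx21 of 88.5, and Eomes, Prdm1 and Bach2 of under 20 CPM, where 1 library gave few UMIs. Cells that should lack the T cell genes gave the background of free RNA. In the macrophage gate (13721 cells), Tox, Tcf7, Eomes, Tbx21 and Lef1 had means of 0.657, 0.762, 0.496, 0.312 and 0.187 CPM, far under any median given here for the CD8 gate. The epithelial tumor gate (9513 cells) had 0.307 CPM of Tox and 0.156 CPM of Lef1 but 992 ± 316 CPM (SD, n = 16) of Id3, more than any T cell gate. After each cell had been thinned to 2000 UMIs, 19.3% of 9516 CD8 cells had a Tox UMI against 0.187% of macrophages, and 8.88% had a Tcf7 UMI against 0.157%; without thinning, the CD8 shares were 29.9% and 14.5%.

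Some of the genes are used by other cells of the tumor, and that bears on their levels here. Macrophages held 273 ± 31.6 CPM of Irf8 and 497 ± 210 CPM of Id2 (SD, n = 16). A list of 6 macrophage markers summed to 447 CPM in the CD8 gate, which at the ratio found in macrophages would carry 7.25 CPM of Irf8 where 187 CPM were found, and 12.6 CPM of Id2 where 590 CPM were found. For Id3 it was otherwise. The 4 stroma and tumor markers (Sparc, Col6a1, Krt19, Epcam) summed to 57.9 CPM in the CD8 gate, which at the ratio of the tumor gate would carry 92.2 CPM of Id3, more than the 65.3 CPM found. Without PancVAX, Id3 exceeded that amount in Ly6c2+ Ccl5+ cells (131 against 44.2 CPM). The part of tumor RNA in the Id3 values was not tested, and Id3 is given with this limit below.

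Across CD8 states the genes fell into opposite orders. Of the 4 states compared here, Tcf7 was highest in Ly6c2+ Ccl5+ cells (97.2 ± 28.7 CPM, SD, n = 16 libraries), then in PD-1+ Slamf6+ cells (46.8 ± 26.6, n = 5) and in cycling cells (37.5 ± 15.6, n = 16), and lowest in PD-1+ Havcr2+ cells (4.21 ± 6.91, n = 16). The Slamf6+ and cycling values lay within each other's spread. Lef1 took the same order, with 99.2 ± 39.4, 41.1 ± 19.4, 28.5 ± 10.9 and 12.1 ± 11.1 CPM in these gates. The 5 Slamf6+ libraries came mostly from pools with PancVAX. In pools without it, Tcf7 stood at 125 ± 28.9 CPM in Slamf6+ cells (27 cells, n = 3 pools) and 121 ± 16.0 CPM in Ly6c2+ Ccl5+ cells (n = 4). The order of Tcf7 was thus not seen there, whereas Lef1 stood at 39.6 ± 33.5 and 123 ± 31.5 CPM. The rest of the CD8 cells had 113 ± 58.0 CPM of Tcf7 and 120 ± 62.0 CPM of Lef1 (n = 16), which did not differ from the Ly6c2+ Ccl5+ values beyond their spread. Irf8 ran the other way, at 35.7 ± 31.0 CPM in Ly6c2+ Ccl5+ cells, 143 ± 111 in Slamf6+ cells, 229 ± 87.5 in cycling cells and 395 ± 94.0 in Havcr2+ cells. Tox stood at 33.1 ± 29.9 CPM in the first of these gates and at 115 ± 102, 154 ± 60.3 and 216 ± 43.6 CPM in the others.

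**Figure D1:**
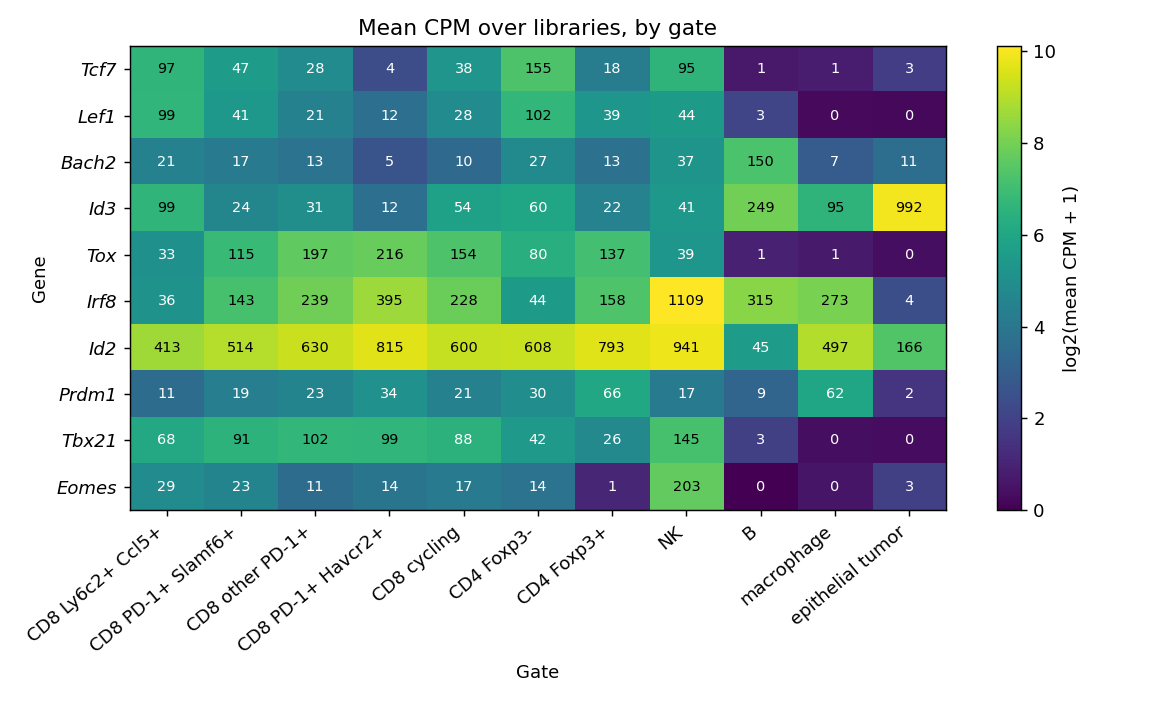
Mean level over libraries of each of the 10 genes (vertical axis) in 11 gates (horizontal axis), printed in CPM; the color is log2(mean CPM + 1), from dark for low to yellow for high. Of the 5 CD8 states shown, Tcf7 and Lef1 are highest in Ly6c2+ Ccl5+ cells (means 97.2 and 99.2 CPM) and lowest in PD-1+ Havcr2+ cells (4.21 and 12.1 CPM), whereas Tox and Irf8 are highest there among these states, and Eomes and Irf8 are highest of the T and NK gates in NK cells (203 and 1109 CPM).

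Ly6c2+ Ccl5+ cells were compared with PD-1+ Havcr2+ cells of the same 16 libraries, which asks how CD8 cells with no UMI of Pdcd1 or Havcr2 differ from cells with both. A gene was called where the adjusted p (edgeR quasi-likelihood test, Benjamini-Hochberg over all genes tested) was under 0.05 and the log2 fold change past 0.5 in size. All 10 genes were called, where 24% of the 4671 genes tested were. For Tcf7, Lef1, Bach2, Eomes and Id3 this count holds with the limits given next. Tcf7 lay at 57.1 to 142 CPM (median 86.5) over the libraries of Ly6c2+ Ccl5+ cells against 0 to 24.3 (median 0) in Havcr2+ cells, without overlap. The 500 Havcr2+ cells held 7 Tcf7 UMIs, all from pools with PancVAX. Tcf7 passed the filter on low counts through the Ly6c2+ Ccl5+ cells, and its fitted difference of 5.23 (log2) depends on the prior count of the fit, so that neither its size nor its call is read as a measured fold. Lef1 was higher by 3.28 ± 0.28, Bach2 by 2.17 ± 0.50, and Eomes by 1.07 ± 0.29. Bach2 was kept in 6 alternatives and passed in these, and Eomes passed in 5 of the 7 alternatives that kept it. The Havcr2+ cells held 29 Lef1, 13 Bach2, 43 Eomes and 33 Id3 UMIs, with no library above 36.0, 24.0, 34.6 and 27.7 CPM. The calls of these genes thus rest largely on the Ly6c2+ Ccl5+ cells, and their folds are given as a description. Id3 was higher by 3.25 ± 0.27, with this limit and that of tumor RNA given above. It was higher by 0.48 (adjusted p = 0.30) when the upper limits on UMIs and genes were left out, where it was not called. Irf8 was lower by 3.73 ± 0.17 on the log2 scale (12.0 to 124 CPM against 204 to 516) and Tox by 3.00 ± 0.21 (7.03 to 109 CPM against 125 to 286), without overlap between the gates for either gene. Prdm1 was lower by 1.38 ± 0.27 and Id2 by 0.92 ± 0.12. For Id2 this joins 577 against 887 CPM in the pools with PancVAX and 254 against 754 CPM in those without. Tbx21 was lower by 0.52 ± 0.15, close to the fold that makes a call, and passed in 5 of 10 alternatives.

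Other genes of these programs moved between the same gates. Of 8 tested genes of an 11-gene list of stem and memory genes, 6 were higher and 0 lower in Ly6c2+ Ccl5+ cells, with a median of 0.93 against 0.02 over all genes. S1pr1, the receptor for egress from tissue, was higher by 3.61 ± 0.24 and Klf2, a factor that drives S1pr1, by 3.20 ± 0.15. Of 12 tested exhaustion genes, 9 were lower and 1 higher (median -1.37). Lag3, an inhibitory receptor, differed by -3.54 ± 0.15 and Cd244a, another receptor of the exhausted state, by -3.28 ± 0.29. Of 11 tested effector genes, 5 were lower and 0 higher in Ly6c2+ Ccl5+ cells (median -0.50), among them Prf1, which encodes perforin, at -1.55 ± 0.17. That median joins libraries with and without PancVAX, between which effector genes of the Ly6c2+ Ccl5+ gate differed, as given further on. These lists were chosen with earlier results of these data known.

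Within PD-1+ cells, the stem-like and terminal ends were compared in the 5 libraries that had at least 10 cells of both gates, most of them with PancVAX. Of the 4 genes that could be tested, Irf8 was called, where 3.34% of 1406 genes were. It was higher in Havcr2+ cells by 1.49 ± 0.35 (log2, SE; adjusted p = 0.031), and was called in 8 of 10 alternatives, not in Percoll libraries alone (1.28, adjusted p = 0.071) or without the upper limits (1.86, adjusted p = 0.14), while Tox differed by 0.84 ± 0.37 (adjusted p = 0.25), Id2 by 0.63 ± 0.24 and Tbx21 by 0.38 ± 0.44. A comparison with all 3539 Havcr2- PD-1+ cells was added after seeing the data and used all 16 libraries. Irf8 was higher in Havcr2+ cells by 0.76 ± 0.11 on the log2 scale. Tcf7 was lower by 3.34 ± 0.35, Id3 by 1.39 ± 0.23 and Bach2 by 1.43 ± 0.42. For Tcf7, Id3 and Bach2 the Havcr2+ side rests on 7, 33 and 13 UMIs, against 456, 519 and 197 in Havcr2- cells. Their sizes and calls are thus given as a description. With them counted, 4 of the 10 genes were called, where 2.73% of genes were. Lef1 differed by -0.80 ± 0.27 (adjusted p = 0.074) and Tox by 0.11 ± 0.11. For Tox this mean over all libraries joins opposite differences. In the 4 pools with PancVAX, Tox lay at 189 to 259 CPM in Havcr2+ and at 102 to 161 CPM in Havcr2- cells, and in the 4 pools without it at 178 to 232 and at 244 to 297 CPM. Havcr2+ cells were thus the higher in each pool with PancVAX and the lower in each pool without, and the test of that difference is given with the vaccine effects.

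CD4 T cells without Foxp3 differed from CD8 T cells of the same libraries in 6 of the 10 genes, where 12.8% of 9959 genes were called. Tcf7 (1.39 ± 0.14), Lef1 (1.00 ± 0.11) and Bach2 (0.83 ± 0.18) were higher in CD4 cells. Tox (-0.91 ± 0.12), Tbx21 (-1.08 ± 0.13) and Irf8 (-2.06 ± 0.13, adjusted p = 1.5e-15) were lower. These 6 genes were called under each of the 11 alternatives, including one, added after seeing the data, in which CD8 sums were thinned to the CD4 totals. Irf8 ranged from 0 to 82.4 CPM (median 44.2) in the Foxp3- CD4 gate against 99.6 to 334 CPM in the CD8 gate, without overlap. Prdm1 (0.50 ± 0.16), Id2 (-0.13 ± 0.08), Id3 (-0.05 ± 0.15) and Eomes (-0.47 ± 0.36) were not called.

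Foxp3+ CD4 T cells, which include the regulatory T cells, were compared with Foxp3- CD4 cells in 12 libraries. Of 5 genes tested, 4 were called, Tcf7 with the limit given next, where 21% of 2848 genes were. Tcf7 was lower in Foxp3+ cells by 3.07 ± 0.36 on the log2 scale. It lay at 0 to 65.6 CPM (median 9.99) against 53.1 to 265 CPM in the 16 Foxp3- libraries (median 153). The 12 Foxp3+ libraries held 15 Tcf7 UMIs, so that its call rests largely on the Foxp3- cells and its fold is given as a description. Lef1, with 35 UMIs in the Foxp3+ libraries, was lower by 1.32 ± 0.30. Irf8 was higher by 1.52 ± 0.17 and Tox by 0.77 ± 0.22, the latter in 7 of 10 alternatives. Id2 differed by 0.26 ± 0.12 and was not called. B cell markers summed to 298 CPM in the Foxp3+ gate and to 71.5 CPM in the Foxp3- gate, and at the ratio of the B gate would carry 24.0 CPM of Irf8 where 146 CPM were found. The 6 dendritic cell markers summed to 23.8 CPM in the Foxp3+ gate (Siglech, Flt3 and Cd209a at 0) and to 9.91 CPM in the Foxp3- gate (Clec9a and Siglech at 0), and their part in the Irf8 difference was not tested. Prdm1 (66.4 ± 28.6 CPM) was above its level in the other T and NK gates by its mean, but had too few UMIs per library for the test.

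NK cells carried the highest mean Eomes and Irf8 of the T and NK gates. Eomes, which NK cells need to mature, ranged from 116 to 325 CPM (median 203) over libraries against 8.61 to 31.8 CPM in CD8 cells, a difference of 3.46 ± 0.15 (log2, SE; adjusted p = 3e-29). Irf8 ranged from 604 to 1629 CPM (median 1061) and was higher by 2.32 ± 0.14. The gates did not overlap for either gene. Tox was lower by 2.20 ± 0.20 on the log2 scale, and Tcf7 (0.77 ± 0.16) and Bach2 (1.27 ± 0.25) were higher. With Id3 (-0.56 ± 0.20, called in 4 of 10 alternatives) these were 6 of 10 genes, where 18.7% of 9723 genes were called. On simulated data this fit called more unchanged genes than its adjusted p allows, so that its calls and that share may hold too many genes, while the fit with thinned CD8 sums did not. The NK sums were smaller than the CD8 sums and the median gene differed by -0.15. With CD8 sums thinned to the NK totals, an alternative added after seeing the data, the median gene was at -0.01, 22% of genes were called, Eomes stood at 3.73 ± 0.21 and Irf8 at 2.41 ± 0.17, and Tbx21 (0.60 ± 0.16) and Id2 (0.57 ± 0.09) also passed. That fit tested 7 of the 10 genes, without Bach2, Id3 and Prdm1, so that the calls of Bach2 and Id3 rest on the fit with all CD8 UMIs. Dendritic cell markers (6 genes) summed to 14.6 CPM in the NK gate and 5.18 CPM in the CD8 gate, and their part in the Irf8 difference was not tested. Macrophage markers summed to 166 to 2262 CPM in the NK libraries, which over all of them would carry 8.03 CPM of Irf8 where 1104 CPM were found.

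The question that the treatments pose is how the vaccine and the antibodies change the T cells of the tumor. Over all CD8 T cells, Tox and Irf8 were lower with PancVAX. Tox stood at 194 CPM in the Isotype Control pool, 210 with Anti-PD-1, 209 with Anti-CTLA-4 and 218 with both, against 96.7 with PancVAX alone, 75.0 with Anti-PD-1 added, 79.8 with Anti-CTLA-4 added and 115 with both added. Irf8 stood at 284, 276, 299 and 280 CPM in the pools without PancVAX and at 126, 110, 123 and 116 CPM in those with it, in the same order of antibodies. For both genes each pool with PancVAX was below each pool without. The difference was -1.28 ± 0.13 for Tox (log2, SE, 4 pools against 4; edgeR with Benjamini-Hochberg, adjusted p = 0.00049) and -1.37 ± 0.06 for Irf8 (adjusted p = 1.6e-05). It was called under all 17 alternatives for both genes, and was -1.16 and -1.28 in whole tumor libraries alone and -1.38 and -1.39 in Percoll libraries alone. B cell markers, summed over 4 genes, were also lower with PancVAX in the CD8 gate, from 64.6 to 95.9 CPM in the libraries without PancVAX to 26.4 to 65.7 CPM in those with it. At the ratio of the B gate they would carry 6.53 and 3.21 CPM of Irf8, where 285 and 117 CPM were found.

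Of the 10 genes, 3 were called in this comparison, where 10.1% of 11206 genes were. The third, Id3, was higher by 0.69 ± 0.17 (adjusted p = 0.022), was called in 9 of 17 alternatives, and turned to -0.24 when cells over the upper limits on UMIs and genes were kept. The stroma and tumor markers moved with it, from 30.8 CPM in CD8 cells without PancVAX to 77.0 CPM with it, and their part in the result was not tested. Tcf7 (0.36 ± 0.23), Lef1 (0.57 ± 0.21, adjusted p = 0.089), Eomes (-0.61 ± 0.23), Prdm1 (-0.16 ± 0.13), Bach2 (-0.15 ± 0.22), Id2 (-0.04 ± 0.10) and Tbx21 (-0.01 ± 0.13) were not called. With the 16 libraries in place of the 8 pools, 5 genes passed, where 13.1% of 10002 genes were called. CD8 cells with PancVAX were shallower, at a median of 3476 UMIs against 4709, and both genes were also called when gates were read on cells of equal depth.

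The CD8 states also changed in share. Ly6c2+ Ccl5+ cells made up 32.0% ± 3.1 of CD8 cells with PancVAX and 7.78% ± 2.0 without (SD, n = 4 pools each), and PD-1+ Havcr2+ cells 3.17% ± 0.54 and 7.32% ± 1.7. These shares are read from single UMIs at unequal depth and are descriptive. In summed CD8 cells Tox differed by -119 CPM. A split by state assigned -28.4 CPM to the shares of the states, the rest included, and -90.5 CPM to levels within states. For Irf8 these parts were -42.5 and -126 of -168 CPM. With gates read on thinned cells the parts were -40.7 and -75.5 CPM for Tox and -56.3 and -110 CPM for Irf8. A change of makeup inside a state is counted with the levels, so that the split cannot tell these apart.

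**Figure D2:**
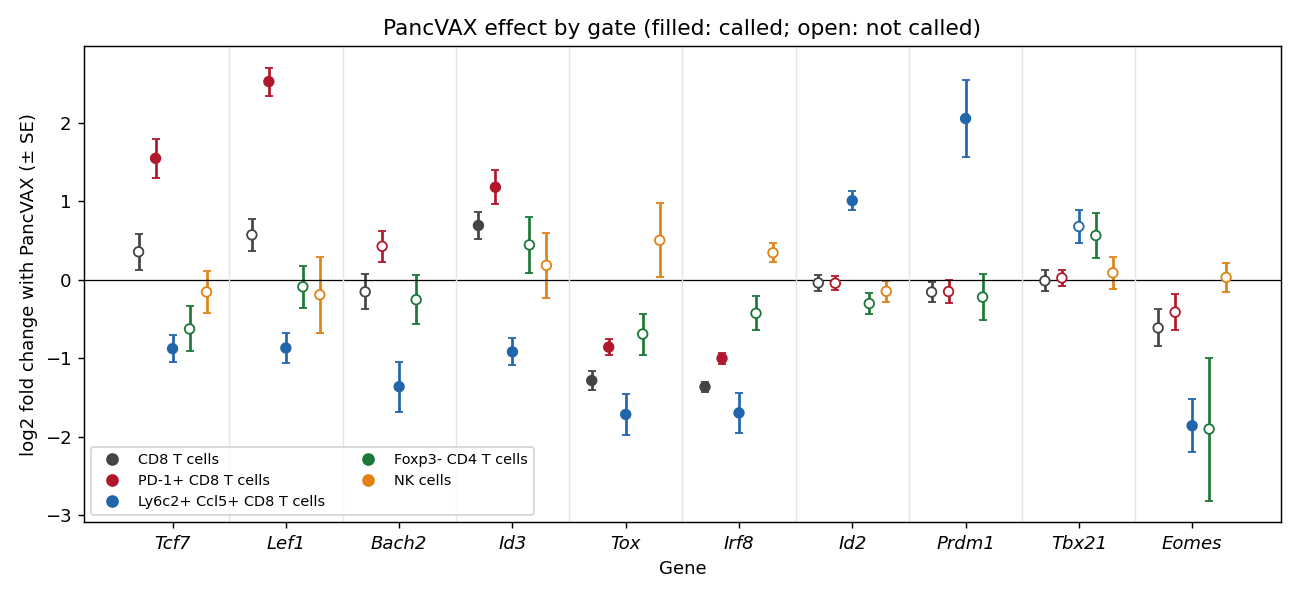
Log2 fold change with PancVAX against without (vertical axis) for each of the 10 genes (horizontal axis) in CD8, PD-1+ CD8, Ly6c2+ Ccl5+ CD8, Foxp3- CD4 and NK cells, by color; bars are 1 SE from the fit over 8 pools, filled points were called and open points were not. Tox and Irf8 lie below 0 in each of the 3 CD8 gates shown, Tcf7 and Lef1 lie above 0 in PD-1+ cells (1.55 and 2.53) and below 0 in Ly6c2+ Ccl5+ cells (-0.88 and -0.87), and each CD4 and NK point is open.

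In the PD-1+ CD8 gate the levels of Tox and Irf8 were lower and those of Lef1 and Tcf7 higher with PancVAX. The gate needs a Pdcd1 UMI and does not exclude cells with Ly6c2 and Ccl5. Whether its makeup was the same with and without PancVAX was not tested. Lef1 stood at 3.54, 5.30, 6.08 and 5.17 CPM in the pools without PancVAX (Isotype Control, Anti-PD-1, Anti-CTLA-4 and both) and at 29.2, 31.5, 38.4 and 26.7 CPM in those with it. Tcf7 stood at 8.27, 12.6, 10.4 and 15.3 CPM without and at 29.6, 39.5, 53.8 and 25.7 CPM with PancVAX. For both genes the lowest pool with PancVAX lay above the highest without. Lef1 rose by 2.53 ± 0.18 (adjusted p = 5.7e-06) and Tcf7 by 1.55 ± 0.24 (adjusted p = 0.0016), both called under all 17 alternatives and within each preparation (2.44 and 1.66 in whole tumor, 2.60 and 1.43 in Percoll). Tox fell by 0.86 ± 0.11 on the log2 scale (224 to 267 CPM without, 124 to 170 with) and Irf8 by 1.00 ± 0.07 (330 to 365 CPM without, 158 to 205 with), each called in 16 of 17 alternatives. B cell markers in the gate were lower too, at 53.5 to 78.7 CPM in the libraries without and 24.8 to 57.2 CPM in those with PancVAX, which would carry 5.47 and 3.11 CPM of Irf8. In the PD-1+ Havcr2+ cells among them the pools overlapped for both genes, at 189 to 259 CPM of Tox with and 178 to 232 CPM without PancVAX, and at 258 to 505 and 349 to 461 CPM of Irf8. In Havcr2- cells, Tox lay at 102 to 161 CPM with and 244 to 297 CPM without, and Irf8 at 133 to 169 and 312 to 344 CPM. The effect in Havcr2+ minus that in Havcr2- cells, a test added after these values had been seen, was 1.01 ± 0.16 for Tox (log2, SE; edgeR, adjusted p = 0.0029) and 0.83 ± 0.15 for Irf8 (adjusted p = 0.0084). Those were 2 of the 10 genes, where 0.374% of 8291 genes were called. Tox passed in 15 of 17 alternatives and Irf8 in 10, and with gates read on thinned cells neither passed (0.63 and -0.19). In whole tumor libraries alone neither passed either (0.85 and 0.62). Id3 was higher by 1.18 ± 0.22, and turned to -0.45 without the upper limits. Stroma and tumor markers were at 27.9 CPM without and 40.3 CPM with PancVAX, which would carry 44.4 and 64.2 CPM of Id3 where 16.8 and 42.3 CPM were found, and their part was not tested.

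Those were 5 of the 10 genes, where 9.02% of 10232 genes were called. Bach2 (0.43 ± 0.20), Eomes (-0.41 ± 0.23), Prdm1 (-0.15 ± 0.15), Id2 (-0.04 ± 0.09) and Tbx21 (0.02 ± 0.11) were not called. Without the upper limits 2 genes passed, Lef1 (2.10) and Tcf7 (1.35), where 206 genes in all were called in place of 923. Among other genes, 5 of 10 tested stem and memory genes were higher and 0 lower, led by S1pr1 (4.84 ± 0.18) and Klf2 (2.14 ± 0.14). Of 15 exhaustion genes, 4 were lower and 2 higher. Cd244a (-1.15 ± 0.10), Ikzf2 (-0.85 ± 0.08), a factor of the Ikaros family, and Lag3 (-0.63 ± 0.11) were lower, and Maf (1.20 ± 0.25) and Nr4a1 (1.10 ± 0.10), which is induced by T cell receptor signals, were higher. Of 12 effector genes, 4 were higher and 0 lower, among them Klrg1 (2.15 ± 0.33), a marker of terminal effector cells. PD-1+ cells had a median of 3876 UMIs with and 5162 without PancVAX.

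**Figure D3:**
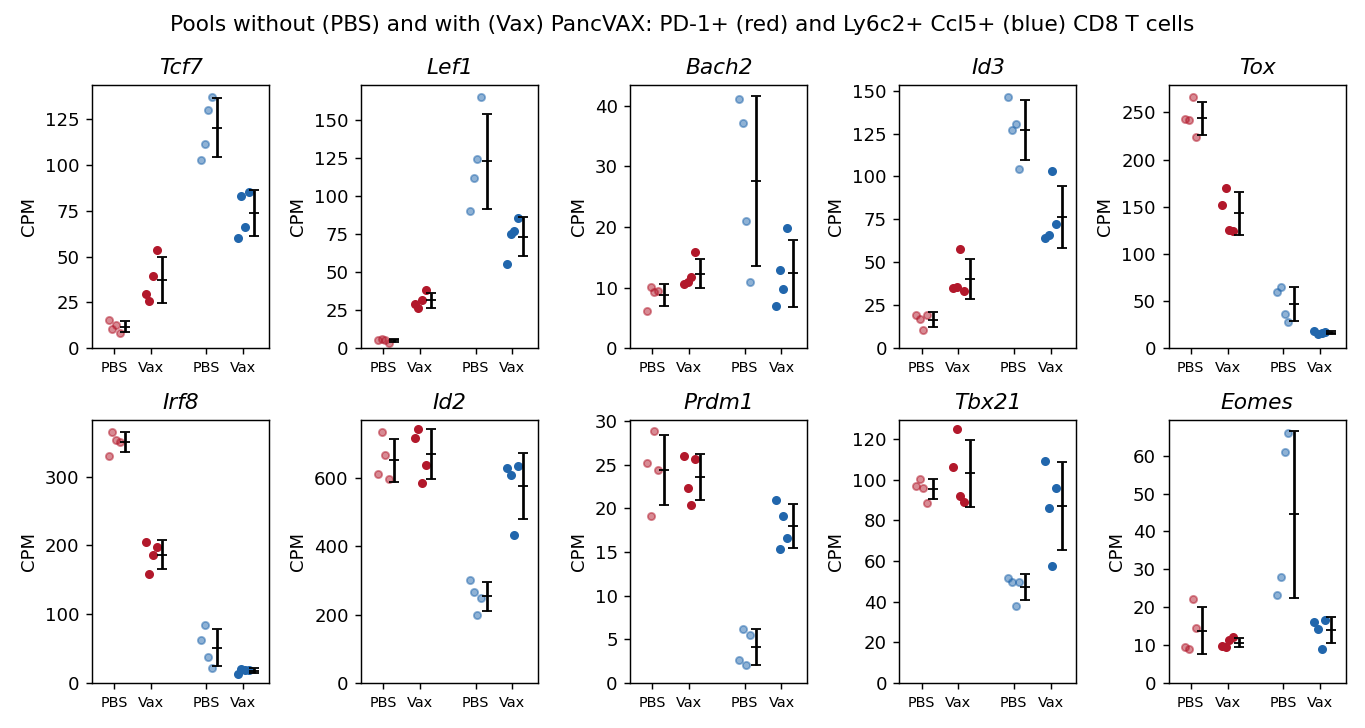
Level of the genes in each of the 8 pools, in CPM, in PD-1+ and in Ly6c2+ Ccl5+ CD8 T cells, with pools without PancVAX (PBS, with or without antibodies) beside pools with it (Vax), in red for PD-1+ and blue for Ly6c2+ Ccl5+ cells; each point is 1 pool and the black mark is the mean of 4 pools with its SD. In PD-1+ cells Lef1 lies at 3.54 to 6.08 CPM without and 26.7 to 38.4 CPM with PancVAX, and in Ly6c2+ Ccl5+ cells Id2 lies at 200 to 301 CPM without and 433 to 636 CPM with it.

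Ly6c2+ Ccl5+ CD8 T cells, which share no cell with the PD-1+ gate, gave another pattern. Id2 stood at 247, 200, 267 and 301 CPM in the pools without PancVAX (Isotype Control, Anti-PD-1, Anti-CTLA-4 and both) and at 629, 433, 636 and 610 CPM in those with it, and was higher by 1.01 ± 0.12 (adjusted p = 4.2e-05). Prdm1 stood at 5.50, 2.10, 6.21 and 2.57 CPM without and at 21.0, 19.2, 16.6 and 15.3 CPM with PancVAX. These are 5 UMIs in all pools without and 129 in those with PancVAX, so that Prdm1 passed the filter on low counts only through the latter, and its call (2.05 on the log2 scale, in 5 of the 10 alternatives that kept it) is given as a description. Tcf7 stood at 137, 130, 112 and 103 CPM without and at 60.1, 66.1, 85.6 and 83.0 CPM with PancVAX. It was lower by 0.88 ± 0.17 on the log2 scale, Lef1 by 0.87 ± 0.19, Bach2 by 1.36 ± 0.32 and Eomes by 1.86 ± 0.33. The effector-associated Id2 was thus higher and Tcf7, Lef1, Bach2 and Eomes lower, and for Bach2 the pools with and without PancVAX overlapped. Tox was lower by 1.72 ± 0.26 (27.5 to 65.2 CPM without, 14.7 to 18.2 with) and Irf8 by 1.70 ± 0.26 (22.0 to 83.8 CPM without, 12.6 to 20.6 with). B cell markers in the gate moved with these genes, at 70.8 to 135 CPM in the libraries without and 13.2 to 58.9 CPM in those with PancVAX. At the ratio of the B gate they would carry 8.60 and 2.62 CPM of Irf8, where 53.3 and 17.9 CPM were found, and 4.40 and 1.34 CPM of Bach2, where 29.2 and 12.2 CPM were found.

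These and Id3 (-0.92 ± 0.17, turning to 0.51 without the upper limits) were 9 of the 10 genes with Prdm1 counted, where 6.17% of 7764 genes were called. Tbx21 differed by 0.68 ± 0.21 (adjusted p = 0.062). The gate held 2189 cells with PancVAX but 300 without, 41 to 93 per pool, at a median of 3032 and 4382 UMIs. Without the Anti-PD-1 pool 4 of the 10 genes passed, with gates read on thinned cells 5, and in whole tumor libraries alone 4. Over all genes, 240 to 612 were called in the alternatives, against 479 in the main fit. Id2 and Irf8 passed under all 17 alternatives, and Tox under 16. Of 12 effector genes tested, 10 were higher and 0 lower with PancVAX (median 1.40 against 0.01 over all genes). Klrg1 (4.17 ± 1.00), Gzma (3.48 ± 0.30), which encodes granzyme A, Cx3cr1 (3.16 ± 0.40), a chemokine receptor of effector cells, and Ifng (2.18 ± 0.19) led. The UMIs of these genes in the 300 cells without PancVAX are not given here, so that their folds are a description. Of 9 stem and memory genes, 2 were higher and 3 lower, and of 14 exhaustion genes, 1 was higher and 2 lower.

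The opposite changes were tested as a difference between the effect of PancVAX in the 2 gates, with the pool as a block. This test was added after the effects in each gate had been seen. With 8 pools and a block for each, little is left per gene to estimate the spread. Its p thus draws largely on the spread that edgeR shares over all genes. It called 9 of the 10 genes, where 3.75% of 10508 genes were called. The effect in Ly6c2+ Ccl5+ cells minus that in PD-1+ cells was -3.32 ± 0.25 for Lef1 (adjusted p = 3.4e-25), -2.33 ± 0.23 for Tcf7 and -1.79 ± 0.38 for Bach2. It was 1.10 ± 0.11 for Id2. For Prdm1 it was 2.32 ± 0.55, with the 5 UMIs given above behind one of its groups. Lef1, Tcf7 and Id2 passed in all 17 alternatives. With DESeq2 5 of the 10 genes passed, where 167 genes in all were called in place of 394. Eomes (-1.39 ± 0.34), Tox (-0.80 ± 0.24) and Tbx21 (0.70 ± 0.20) passed in 12, 9 and 9 of 17, Id3 (-2.12 ± 0.21) turned to 0.90 without the upper limits, and Irf8 (-0.63 ± 0.23, adjusted p = 0.10) did not pass. The Irf8 fall in each gate was thus not shown to differ between them.

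In CD4 T cells and NK cells none of the 10 genes was called with PancVAX. In Foxp3- CD4 cells, 0 of 10 passed by edgeR and by DESeq2, where 0.963% of 5502 genes did. Tox (-0.69 ± 0.26), Irf8 (-0.43 ± 0.22) and Tcf7 (-0.63 ± 0.29) had adjusted p of 0.27, 0.43 and 0.37. In Foxp3+ CD4 cells, 0 of 4 tested genes passed, where 0.078% did, and in NK cells 0 of 8, where 0% of 3276 genes did and 280 had an unadjusted p under 0.05. Irf8 in NK cells lay at 865 to 1105 CPM in the pools without PancVAX and at 1122 to 1496 CPM in those with it, without overlap, at 0.34 ± 0.12 and an adjusted p of 0.42. These gates held fewer cells than the CD8 gate, 324 Foxp3- CD4 and 245 NK cells without PancVAX against 3837 CD8 cells. The difference between the effects in CD4 and CD8 cells was itself tested, and 2 of 10 genes passed, where 1.45% of genes did. The effect in Foxp3- CD4 cells minus that in CD8 cells was 1.00 ± 0.21 for Irf8 (adjusted p = 0.0054) and -0.92 ± 0.20 for Tcf7 (adjusted p = 0.006), with 0 of 10 by DESeq2 and 1 to 3 when 1 pool was left out: 1 each without the Anti-CTLA-4 pool, the Anti-PD-1 + Anti-CTLA-4 pool or the PancVAX + Anti-PD-1 pool. Tox differed by 0.67 ± 0.21 (adjusted p = 0.11), so that its fall was not shown to be particular to CD8 cells.

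The antibodies gave no call among the 10 genes with the limits on cells used here. For anti-PD-1 in CD8 T cells, 0% of 11206 genes were called by edgeR (405 had an unadjusted p under 0.05, and DESeq2 called 4), and for anti-CTLA-4 0% (476, and DESeq2 called 0). None of the 10 genes moved by more than 0.40 in either comparison, with Id3 at -0.40 ± 0.17 for anti-CTLA-4 the most distant from 0. For anti-PD-1 in PD-1+ cells 0.0195% of genes were called, and Tox differed by 0.11 ± 0.10 and Tcf7 by -0.02 ± 0.24. Between single treatments, PancVAX against Isotype Control in CD8 cells called Tox (-1.07 ± 0.15, adjusted p = 0.001) and Irf8 (-1.27 ± 0.15, adjusted p = 0.00031), where 4.21% of genes were called. Without the upper limits neither passed, at -0.51 for Tox (adjusted p = 0.15) and -0.37 for Irf8 (adjusted p = 0.16). Each treatment there is 1 pool in 2 libraries, so that the test reads the spread between libraries, and these values share their pools with the comparison of 4 pools against 4. Both antibodies added to PancVAX called 0 of 10 genes in PD-1+ cells, where 0.305% of 9166 genes were called and 785 had an unadjusted p under 0.05; DESeq2 called 0 of the 10 as well. Tox was at 0.15 ± 0.13, Irf8 at -0.38 ± 0.12 (adjusted p = 0.29) and Tcf7 at -0.22 ± 0.24. Without the upper limits 758 genes were called in place of 28, with Irf8 at -1.15 (adjusted p = 0.00039) and Prdm1 at -0.86 (adjusted p = 0.049) among them.

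Between preparations, Id3 alone was called in CD8 cells, where 3.92% of genes were. It was higher in Percoll libraries by 1.17 ± 0.20 (adjusted p = 0.0029), and the stroma and tumor markers in CD8 cells moved with it, from 38.0 CPM in whole tumor to 73.0 CPM in Percoll libraries. Their part was not tested. Id3 was not called without the upper limits on UMIs and genes, or when only the libraries with PancVAX were used. Tox (-0.03 ± 0.07), Irf8 (0.10 ± 0.07) and Tcf7 (-0.23 ± 0.09) differed by 0.23 or less, and Id2 by 0.33 ± 0.05 (adjusted p = 0.00098), under the fold that makes a call.

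Within single PD-1+ CD8 cells thinned to 2000 UMIs, cells with a UMI of both genes were counted against the number expected if the genes were independent within each library. Tcf7 and Lef1 were found together in 31 cells where 12.6 were expected (ratio 2.46), Tcf7 and Bach2 in 16 where 5.82 were expected (2.75), and Tcf7 and Id3 in 32 where 14.1 were expected (2.27). At least 3 cells were expected in 0, 0 and 1 libraries for these pairs, so that their ratios could not be compared between libraries. Tox and Lef1 were found together in 17 cells where 42.1 were expected (ratio 0.404), Tcf7 and Irf8 in 27 where 55.7 were expected (0.485), and Lef1 and Irf8 in 22 where 43.9 were expected (0.501). The ratio of Tox and Lef1 was under 1 in each of the 5 libraries where at least 3 cells were expected, and that of Tcf7 and Irf8 in 6 of 8. Other pairs did not follow these. Id3 and Bach2 were found together in 6 cells where 5.84 were expected, and Bach2 with Tox (ratio 0.881) and with Irf8 (0.880) was above 1 in both libraries where at least 3 cells were expected. These are counts of cells that share libraries, given as a description.

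**Figure D4:**
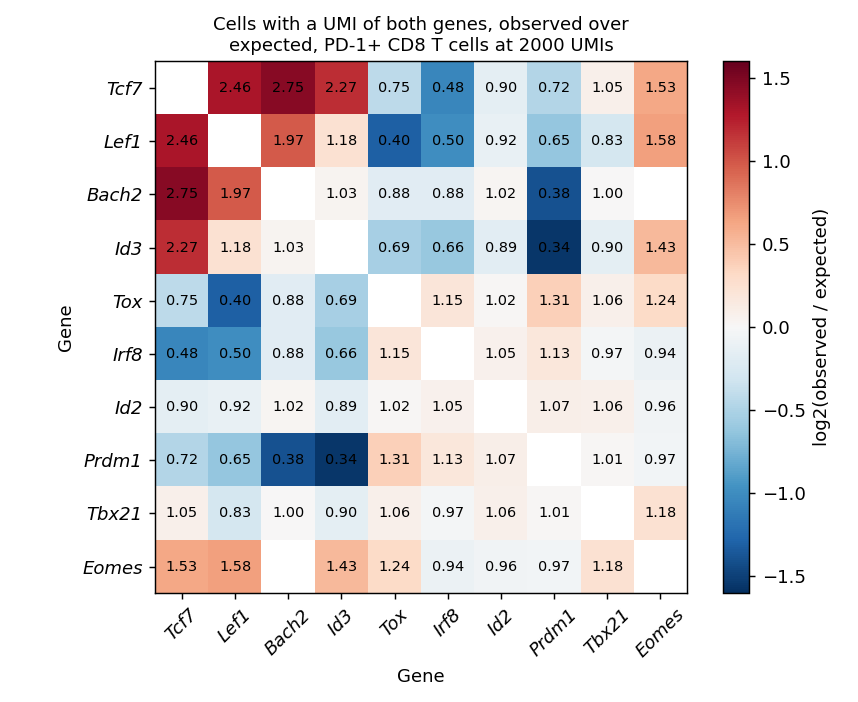
Number of PD-1+ CD8 T cells with a UMI of both genes over the number expected, printed for each pair of the 10 genes with at least 3 expected cells after thinning to 2000 UMIs; the color is the log2 of this ratio, red above and blue below 0. Pairs within Tcf7, Lef1 and Bach2 lie above 1 (2.46, 2.75 and 1.97), and Tox with Lef1 (0.404) and Tcf7 with Irf8 (0.485) lie below 1.

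Over 94 sums by library and gate (CD8 states, CD4 and NK gates), which share libraries and depth, the genes closest to each factor in level were named as a description. By Pearson r of log2(CPM + 5) among 5260 genes, Tox was closest to Lag3 (0.89), Rbpj and Adgrg1 (0.80 each). Irf8 was closest to Cd244a (0.89), Lat2 (0.89) and Car2 (0.88). Tcf7 was closest to Tmsb10 (0.84), Pdlim1 (0.79) and Klf3 (0.78), and Lef1 to S1pr1 (0.80) and Klf2 (0.77). Satb1, which organizes chromatin in T cells, led the list of Bach2 (0.69), ahead of Tcf7 itself (0.64). Eomes was closest to Txk (0.84), Klra9 and Klra8 (0.82 each), the last 2 of which are genes of NK cells. Tbx21 was closest to Efhd2 (0.81), Id2 to Stk24 (0.71), Id3 to Socs3 (0.68) and Prdm1 to Ctsb (0.63), the weakest of the 10.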

How the data were processed

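Droplet-based 5' single-cell RNA sequencing of 16 libraries was analysed, with T cell receptor contigs of the 8 Percoll libraries. The authors deposited raw UMI counts per gene and barcode, made with Cell Ranger 4.0.0 (per the submitters' processing notes, which also name the build mm10 and Seurat). The suffix of each barcode was taken to be the number that opens each sample description. This match is inferred, no source used here states it, and every treatment and preparation rests on it. In all, 0 columns of per-sample values were left unmapped. Ambient RNA had not been removed, and this bears on Id3.

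Cells were kept with the limits of the study's methods (200 to 3000 genes, 1000 to 10000 UMIs, under 10% mitochondrial UMIs, no hemoglobin UMI) and genes were kept from 3 barcodes with a UMI upward. No doublet caller was run. The upper limits and the gates remove some doublets: of 17025 cells with a Cd3 UMI, 1163 passed the limit of 0.5% of UMIs from other lineages, 190 had Cd4 and Cd8 UMIs together and 3470 had neither, and these were left out. UMIs were summed by library and gate, for libraries with at least 10 cells, or by pool for the effects of agents. The macrophage gate needed at least 5 UMIs of C1qa, C1qb and C1qc and no Cd3. Ly6c2+ Ccl5+ cells had at least 3 Ccl5 UMIs. One further CD8 gate and its comparison are not reported here, and its cells were counted in the rest.

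Sums were fitted with the quasi-likelihood test of edgeR 4.0.16 (TMM, filterByExpr; R 4.3.3, limma 3.58.1), two-sided, with Benjamini-Hochberg adjustment over all genes tested. Gates were compared with the library as a block, because both gates come from the same library. The 2 libraries of a treatment may hold the same mice, so that these tests measure the spread between libraries and not between mice. Vaccine and antibody effects were additive terms over 8 pools, single treatments were compared over 16 libraries with preparation as a covariate, and differences of effects had the pool as a block and gate by agent terms. Calls needed an adjusted p under 0.05 and a log2 fold change past 0.5. SDs are over libraries or pools. Fits were tested on simulated data, where the NK against CD8 fit called too many unchanged genes. Alternatives were DESeq2 1.42.0, no filter, other gate limits, no upper limits, gates read on cells thinned to 2000 UMIs, another unit or block, and leaving out each pool. Within-preparation fits, the Havcr2- comparison, thinned CD8 sums and the differences of the vaccine effect between Ly6c2+ Ccl5+ and PD-1+ and between Havcr2+ and Havcr2- cells were added after seeing the data. The 10 genes are named in each comparison, and the program lists by counts with up to 4 genes of the largest change. Members and lists were chosen with earlier results of these data known. Sequences are from RefSeq (GRCm38.p6). Sums and figures were made in Python 3.11.15 with matplotlib 3.10.9 and pandas 2.3.3.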

Additional observations from a re-analysis of the deposited data

Results flagged for a closer look

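In 100 groups of 4 pools (10 genes, 5 gates, with and without PancVAX), 6 had a pool far from the other 3, where chance gives about 1 in 20. PancVAX + Anti-PD-1 was that pool in 3 of them, with the highest Id3 in PD-1+ CD8 cells (57.9 CPM) and in Foxp3- CD4 cells (128 CPM) and the lowest Id2 in Ly6c2+ Ccl5+ cells (433 CPM). Its Percoll library also had the most kept cells, 7413. In the pools without PancVAX, Prdm1 in CD8 cells was lowest with Anti-CTLA-4 (17.5 CPM), and Tbx21 in Ly6c2+ Ccl5+ cells was lowest with Anti-PD-1 (37.8 CPM). Among the pools with PancVAX, Eomes in NK cells was highest with PancVAX alone (292 CPM).

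The effect of PancVAX differed between gates by a test of the difference itself. Foxp3- CD4 minus CD8 cells gave 1.00 for Irf8 and -0.92 for Tcf7 (log2). In Foxp3- CD4 cells neither gene was called with PancVAX (Irf8 -0.43, Tcf7 -0.63). Ly6c2+ Ccl5+ minus PD-1+ CD8 cells gave -3.32 for Lef1, -2.33 for Tcf7, -2.12 for Id3, -1.79 for Bach2, -1.39 for Eomes and -0.80 for Tox, and 2.32 for Prdm1, 1.10 for Id2 and 0.70 for Tbx21. Of these, Id3 turned to 0.90 without the upper limits, and Prdm1 rests on 5 UMIs in the Ly6c2+ Ccl5+ cells without PancVAX. Within PD-1+ CD8 cells, Havcr2+ minus Havcr2- cells gave 1.01 for Tox and 0.83 for Irf8, and with gates read on thinned cells neither passed and Irf8 turned to -0.19. The tests other than CD4 minus CD8 were added after the effects in each gate had been seen. The gates are read on Pdcd1, Havcr2, Ly6c2 and Ccl5. Ly6c2+ Ccl5+ cells made up 32.0% ± 3.09 of CD8 cells in the pools with PancVAX and 7.78% ± 1.97 in those without (mean ± SD, n = 4 pools each). Whether the cells of a gate have the same makeup with and without PancVAX was not tested.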

How the results depend on the processing

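For results called in the main fit or in the alternative, directions held in nearly all alternatives. The signs of results called in neither were not compared. Of the 10 genes, the count called changed by over 1.5 times as follows. Havcr2+ against Slamf6+ PD-1+ cells (1 gene) gave 3 with no filter on low counts, 0 with no upper limits, 2 summed by pool, 2 with no replicate block, 4 against all Havcr2- cells and 0 in Percoll libraries. Ly6c2+ Ccl5+ against Havcr2+ cells (10) gave 5 with gates on thinned cells, 6 with no replicate block (7 tested) and 6 in whole tumor libraries. The replicate block, here the library, is given by the design, since both gates come from 1 library. Foxp3+ against Foxp3- CD4 cells (4) gave 7 with no filter, 2 with thinned gates and 7 by pool. With PancVAX, CD8 cells (3) gave 5 over 16 libraries, PD-1+ cells (5) gave 2 with no upper limits, Ly6c2+ Ccl5+ cells (9) gave 5 with thinned gates, 4 in whole tumor libraries and 4 to 9 when 1 pool was left out, and Foxp3- CD4 cells (0) gave 1 with no filter. The CD4 minus CD8 difference (2) gave 0 with DESeq2, 0 with no upper limits, 1 in each preparation and 1 to 3 when 1 pool was left out. The Ly6c2+ Ccl5+ minus PD-1+ difference (9) gave 5 with DESeq2. The Havcr2+ minus Havcr2- difference (2) gave 1 with DESeq2, 0 with thinned gates, 0 in whole tumor libraries and 1 to 2 when 1 pool was left out (1 without Isotype Control, Anti-PD-1, both antibodies or PancVAX + Anti-PD-1). With no upper limits, PancVAX against isotype (2) gave 1, both antibodies added (0) gave 2, and Percoll against whole tumor (1) gave 0. The last gave 0 in libraries with and 2 in those without PancVAX. The causes were not tested.

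Among results called in either setting the sign turned in 5 cases, Irf8 in the Havcr2+ minus Havcr2- difference with thinned gates (-0.19) and Id3 with PancVAX with no upper limits (-0.24 in CD8, -0.45 in PD-1+, 0.51 in Ly6c2+ Ccl5+ cells, 0.90 for the difference between the latter). Over all genes, the calls with PancVAX ranged from 380 to 1385 in CD8 cells (1134), from 206 to 1211 in PD-1+ cells (923) and from 240 to 612 in Ly6c2+ Ccl5+ cells (479), each lowest with no upper limits or in Percoll libraries and highest with no filter. NK against CD8 calls fell from 1815 to 537 with CD8 sums thinned to the NK totals. Calls ranged from 3 to 191 (47) for Havcr2+ against Slamf6+ cells and from 428 to 1659 (1123) for Ly6c2+ Ccl5+ against Havcr2+ cells. For Foxp3+ against Foxp3- CD4 cells they ranged from 262 to 1023 (597). The differences of effects gave 11 to 200 (158) for CD4 minus CD8 and 167 to 420 (394) for Ly6c2+ Ccl5+ minus PD-1+ cells. Havcr2+ minus Havcr2- cells gave 10 to 71 (31). Havcr2+ against Slamf6+ cells could not be fitted with thinned gates. Low UMI counts limit Prdm1, Bach2 and Eomes in the small gates, Tcf7, Lef1 and Id3 in PD-1+ Havcr2+ cells, and Tcf7 in Foxp3+ CD4 cells.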

Other observations

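The B cell gate (2192 cells, 15 libraries) had the highest mean Bach2 of the 11 gates plotted, at 150 ± 33.2 CPM (SD), with Irf8 at 315 ± 77.4 CPM, Id2 at 45.5 ± 31.9 CPM and Tcf7 and Lef1 at 0.594 and 3.31 CPM. BACH2 and IRF8 are known to act in B cells. In macrophages Prdm1 stood at 61.6 ± 11.0 CPM over 16 libraries, above its mean of 20.1 CPM in the CD8 gate.

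In cycling CD8 T cells (2738 cells), Lef1 lay at 32.5 to 40.6 CPM in the 4 pools with PancVAX and at 13.4 to 26.9 CPM in the 4 without. Over all 16 libraries these cells had Tox at 154 ± 60.3 CPM and Tbx21 at 88.3 ± 18.1 CPM (SD). In the whole CD8 gate these means were 149 and 88.0 CPM, within that spread. The Tox mean of cycling cells joins 69.1 to 125 CPM in the pools with PancVAX and 185 to 216 CPM in those without.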
